A study of Bos taurus and Ovis aries and Capra hircus with 27 samples.

Results

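The goat gene models described here are those whose predicted protein is shorter than 80 residues. Members were taken from the goat expression table by protein length alone, after models with a copy suffix in their identifier were set aside, and expression values played no part in the choice. There were 582 such models among the 18215 that had a protein sequence and a scaffold position. Another 3916 of the 22131 models with expression values had no protein here, so short models among them are missing from the members. Summed FPKM below runs over all 22131 models, including those without a protein. Another 16556 models of 80 residues or more, also without a copy suffix, served as the comparison. Protein lengths of the members ran from 49 to 79 residues with a median of 69. Of the 582 identifiers, 295 came from gene prediction, 152 carried a cattle protein identifier and 135 a human protein identifier.

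The study collected several organs of cattle, sheep and goats for mRNA sequencing, and the 9 goat libraries are used here, 3 each of heart, liver and kidney. All goat libraries came from indigenous goats kept at Ya'an in Sichuan that were about 3 years old according to the labels, with no treatment or engineered allele. The study's methods describe the animals as unrelated adult females, 3 per population. The study sampled its tissues from the same individuals, so the 9 libraries would come from 3 animals. The labels do not state that a replicate number marks an animal, although libraries of the same number did deviate together in each pair of tissues. The main fit and the permutation tests below treat the libraries as unpaired.

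Proteins of this size have well known roles in every tissue. Many are subunits of the mitochondrial respiratory complexes, of ATP synthase or of the ribosome, where a small protein fills a gap in a large assembly. Others are secreted peptides such as hepcidin, chemokines and defensins, or small regulators such as phospholamban, which restrains the calcium pump of the cardiac sarcoplasmic reticulum. A short model in an automatic annotation can also be a piece of a longer gene, or a processed copy without introns.

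The files paired no gene names with the goat identifiers. A member is therefore named below by its identifier, with a description of the protein read from a short residue signature searched in every goat protein. Among the members, 92 carried such a signature. The signatures were written after sequences and values had been seen, so the groups they form are descriptions. Because named marker proteins could not be matched, the tissue labels were not checked against a marker list. The member with the hepcidin signature was highest in the libraries labelled liver, and the member with the phospholamban signature in the libraries labelled heart. These examples were picked after the values had been seen and do not check the labels, and none is given for kidney.

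Most short models were not detected. The table listed 333 of the 582 members (57.2%) at 0 in all 9 libraries, as it did 3138 of the 16556 longer models. A total of 201 members (34.5%) exceeded 0.5 FPKM (fragments per unit of transcript length and of library size) in at least 3 libraries, compared with 64.3% of the longer models. Detection fell across the members from 42.7% of the 124 models of 49 to 59 residues to 29.6% of the 277 models of 70 to 79 residues. It was higher again among the longest models, where 7238 of the 9654 models of 300 residues or more were detected. The limit of 80 residues marked no step. Of the 40 members at 79 residues, 11 were detected (27.5%), as were 10 of the 31 models at exactly 80 residues (32.3%).

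The level of 0.5 FPKM did not ask the same of short and long models. Every value above 0 among the members also exceeded 0.5 FPKM, and the lowest was 0.775 FPKM. In models of 80 residues or more, 82.9% of the values above 0 did so. The 5th percentile of the values above 0 was 9.19 FPKM for models of 49 to 59 residues, 2.57 FPKM at 60 to 69 residues and 1.34 FPKM at 70 to 79 residues, and it was 0.0618 FPKM at 300 residues or more. No member value thus lay between 0 and the level. A value of 0 in these files is therefore given here only as listed at 0.

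**Figure D1:**
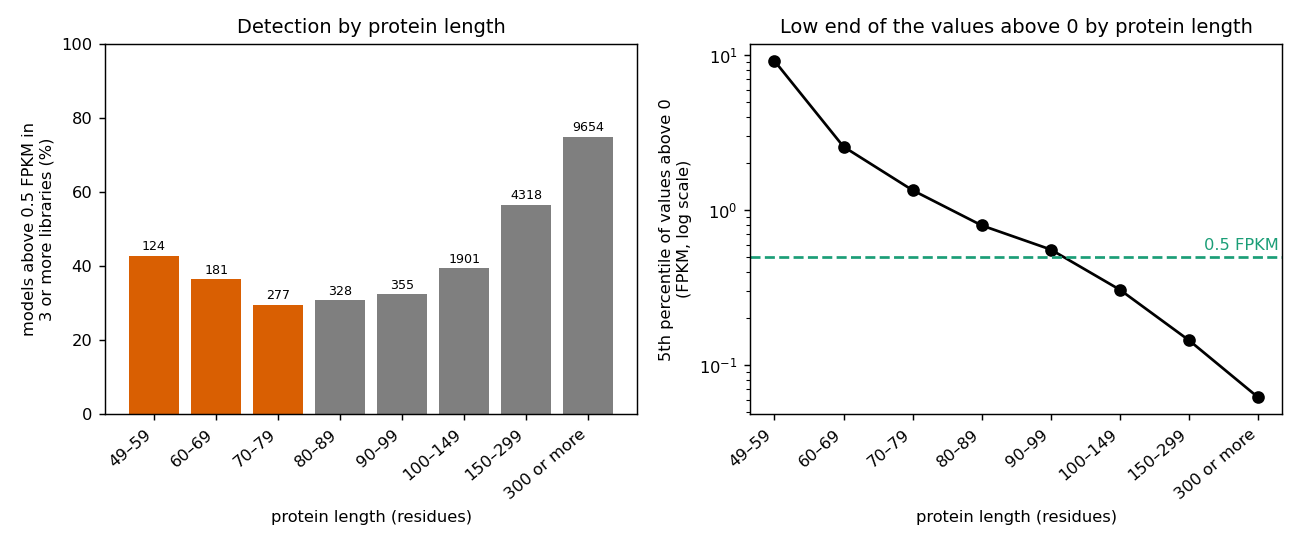
Left, percentage of goat models above 0.5 FPKM in at least 3 of 9 libraries by protein length (bars, with the number of models above each; orange, members under 80 residues). Right, 5th percentile of the values above 0 (FPKM, log scale) in the same length classes, which falls from 9.19 to 0.0618 and passes below the dashed line at 0.5 FPKM beyond 99 residues.

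Detection went with the source of the identifier. Only 30 of 295 members from gene prediction (10.2%) passed the level, compared with 101 of 152 with a cattle identifier (66.4%) and 70 of 135 with a human identifier (51.9%). Among members named after a cattle or human protein, 111 of 153 whose coding sequence was split on the scaffold passed (72.5%), against 60 of 134 in a single uninterrupted block (44.8%). Predicted members passed in 8.92% of split and 11.6% of single-block models. A first residue other than methionine, found in 192 members, went with more frequent detection (56.8%) than a methionine start (23.6%). The first residue was not compared within each source of identifier, so it cannot be separated from the source here.

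Some members resembled another goat protein. In all, 28 members matched another goat model at 90% identity or more over at least 80% of their length. Of these, 16 (57.1%) were listed at 0 in all libraries, close to the 57.2% of all members, and 8 passed the level. Single blocks made up 19 of the 28. For 15 of the 19, a matching model was above 0 in all 9 libraries. The member itself was listed at 0 throughout in 11 of the 15, and was above 0 in only 1 library in 3 others. Of all 272 single-block members, 60.7% were listed at 0 throughout. The exception was GOAT_ENSBTAP00000048946, an amino end of hypoxanthine phosphoribosyltransferase, the purine salvage enzyme, which was above 0 in 6 libraries. How the quantification divided reads between near-identical models is not given in the sources used here, so values of such members are uncertain.

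The BRK1 pair illustrates this. GOAT_ENSBTAP00000021429 carries the signature of BRK1, a subunit of the actin-nucleating WAVE complex, and is split on the scaffold. It stood at 797, 815 and 868 FPKM in heart, 244, 320.3 and 324 FPKM in liver, and 555, 663 and 547 FPKM in kidney. Its single-block relative goat_GLEAN_10016718, 94.2% identical, was listed at 0 in all 9 libraries. A similar pair carries the signature of the ubiquitin-like splicing modifier UBL5. GOAT_ENSBTAP00000052140 ran from 266 to 506 FPKM, and its single-block relative goat_GLEAN_10015632, 98.6% identical, was above 0 in 1 liver library only, at 1.30 FPKM.

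Some secreted and reproductive families were present among the members and listed at 0 in nearly all of these libraries. Of 18 members with the cysteine spacing of beta-defensins, which are antimicrobial peptides of epithelia, 16 were listed at 0 in all 9 libraries and none passed the level. The other two had a value in 1 kidney library each, of 2.15 and 29.4 FPKM. That spacing is loose and also occurred in 40 goat proteins of 80 residues or more. The member with the signature of the spermatid transition protein, which replaces histones in developing sperm, was listed at 0 throughout. So were single-block members with the signatures of ribosomal proteins eL37 and uS17, and GOAT_ENSBTAP00000037319, a single-block relative of eL38. All 5 members made of 40% or more glycine and tyrosine were listed at 0.

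The detected short models had high FPKM values, above all in heart. They made up 26.7, 27.5 and 27.3% of summed FPKM in the 3 heart libraries. The corresponding shares were 9.05, 9.35 and 8.66% in liver and 8.67, 10.3 and 9.68% in kidney. The heart mean of 27.2% ± 0.406 (SD, n = 3) exceeded the liver mean of 9.02% ± 0.345 by 18.2 percentage points and the kidney mean of 9.55% ± 0.824 by 17.6 points. Heart did not overlap with either tissue, while liver and kidney overlapped. A 2-sided exact permutation test gave p = 0.1 for heart against each other tissue, the smallest that 3 against 3 allows, and 0.15 after adjustment over the 3 pairs. Liver against kidney gave an exact permutation p of 0.4. Models of 49 to 59 residues held a mean of 21.5% of summed FPKM in heart, 4.51% in liver and 5.96% in kidney. FPKM of very short models depends strongly on the effective length that is assumed, so their level against longer models is uncertain. FPKM is a relative measure, so these are shares of each library and not amounts of RNA per cell.

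Concentration in a few members was strong. The 2 most abundant heart members held between 49.2 and 52.4% of the short models' sum in heart, 16.2 to 17.7% in liver and 10.6 to 24.9% in kidney. Between 7 and 10 of the 20 goat models of highest FPKM in each heart library were members. That number was 3 or 4 in liver and 3 to 7 in kidney. With the leading heart pair taken out of both sums, an alternative chosen after the data were seen, the share was 15.6% in heart, 7.62% in liver and 7.84% in kidney.

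**Figure D2:**
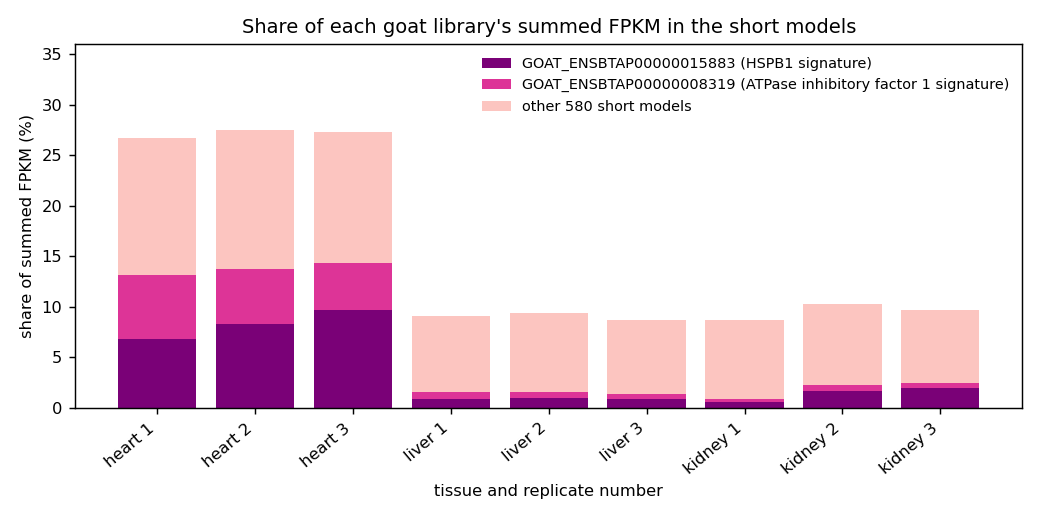
Share of each goat library's summed FPKM (%) held by short models, with the HSPB1-signature and ATPase inhibitory factor 1-signature models drawn apart from the other members. The 3 heart bars reach 26.7 to 27.5% and the 6 liver and kidney bars 8.66 to 10.3%.

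The number of members detected differed little between tissues. Between 169 and 179 members exceeded 0.5 FPKM in a heart library, 164 to 167 in a liver library and 175 to 188 in a kidney library. These are 30.0% ± 0.882, 28.5% ± 0.262 and 31.1% ± 1.13 of the members (SD, n = 3 each). Liver did not overlap with heart or kidney, each with an exact permutation p of 0.1, adjusted 0.15. Heart and kidney overlapped, with an exact permutation p of 0.4.

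Tissue differences were tested with limma on log2(FPKM + 1) over all 13634 goat models above the level, and calls were made at an adjusted p of 0.05. In bulk samples, fewer cells of a type and less RNA per cell cannot be told apart. Members were then counted against the share of all tested models called in the same comparison. Heart against liver called 119 of the 201 members tested, where 49.2% of all tested models were called. Of these members, 94 were higher in heart (29.6% of all tested models were) and 25 higher in liver (19.6%). Heart against kidney called 113 members (63.2% of all tested models), with 72 higher in heart (17.9%) and 41 higher in kidney (45.3%). Liver against kidney called 85 members (65.0% of all), with 21 higher in liver (13.4%) and 64 higher in kidney (51.6%).

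Short models therefore leaned to heart more often than goat models at large. Their median difference was 1.01 on the log2 scale for heart minus liver, against 0.10 over all tested models. For heart minus kidney it was 0.33 against -0.55, and for liver minus kidney -0.50 against -0.69. The members passed the level only if high somewhere, and these medians are descriptions of the 201 and not of all 582. A higher share in heart was not confined to members. Models of 80 to 89 residues held a mean of 2.30% of summed FPKM in heart, 1.08% in liver and 1.04% in kidney. At 90 to 99 residues the shares were 1.58, 0.814 and 1.40%. Calls were not counted by length class. Levels in kidney ran high for most goat models in these files. Scaling by median ratios moved the median difference over all tested models from -0.69 to -0.01 for liver minus kidney and from -0.55 to -0.04 for heart minus kidney. On that scaling 87 members were higher in heart than in liver and 32 lower, where 27.0% of all tested models were higher and 26.8% lower. Against kidney, 88 members were higher in heart and 26 lower, where 29.0 and 29.1% of all tested models were. Between liver and kidney, 50 members were higher in liver (26.6% of all tested models) and 30 higher in kidney (25.3%). The members' median difference on that scaling was 0.81 for heart minus liver, 0.89 for heart minus kidney and 0.23 for liver minus kidney.

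Members higher in 1 tissue than in both others numbered 67 for heart, 13 for liver and 26 for kidney. Over all tested models the corresponding shares were 14.5, 9.59 and 34.2%. As shares of the 201 members, the counts are 33.3, 6.47 and 12.9%. Members lower than in both other tissues numbered 10 for heart (11.3% of all tested models), 35 for liver (17.3%) and 8 for kidney (4.15%). The 13 members elevated in liver fell to 7 without replicate 1 or replicate 2 of liver and to 8 without replicate 3. Over all tested models, 7.49, 6.85 and 7.02% were elevated in liver without replicates 1, 2 and 3. The filter of 3 libraries was applied again in these fits, and a member above the level only in liver could not pass it. Members tested fell from 201 to 195, 195 and 196, so these drops do not measure the spread between replicates alone. On median ratio scaling the members lowest in liver fell from 35 to 13, where 8.21% of all tested models were lowest there.

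The most abundant short model of heart was GOAT_ENSBTAP00000015883, a stretch of 50 residues encoded without an intron on scaffold 143, bases 2274309 to 2274458 of the plus strand, in the CHIR_1.0 goat assembly. It carries the carboxyl-end signature of the small heat shock protein HSPB1, a chaperone of the actin cytoskeleton, and does not start with methionine. Its values were 55614, 67202 and 80291 FPKM in heart, 4952, 5891 and 5601 FPKM in liver, and 3429, 10461 and 11532 FPKM in kidney. Every heart library was above every other library, and kidney replicate 1 was well below the other kidney libraries. The log2 difference was 3.61 ± 0.43 (SE) for heart minus liver (adjusted p = 9.5e-05) and 3.17 ± 0.43 for heart minus kidney (adjusted p = 0.00019). Liver minus kidney was -0.45 ± 0.43 and was not called, but without kidney replicate 1 it was -1.01 with an adjusted p of 0.0024.

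GOAT_ENSBTAP00000008319, also of 50 residues, carries the signature of ATPase inhibitory factor 1, which blocks ATP hydrolysis by the mitochondrial synthase. It lies in a single block on scaffold 670 at 818778 to 818930, minus strand. Heart stood at 51933, 43970.5 and 38423 FPKM, liver at 4234, 3129 and 3088 FPKM, and kidney at 2537, 3744 and 2738 FPKM. Liver and kidney overlapped, far below heart. The log2 difference was 3.69 ± 0.25 for heart minus liver (adjusted p = 2.0e-06) and 3.91 ± 0.25 for heart minus kidney (adjusted p = 1.6e-06).

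A further pair of members was close to exclusive to heart in these libraries. GOAT_ENSBTAP00000017182 carries the phospholamban signature and lies on scaffold 1011 at 1368849 to 1369007, minus strand. It stood at 4038, 2814 and 2799.8 FPKM in heart and at 16.6, 15.1 and 18.0 FPKM in kidney, and was listed at 0 in every liver library. Heart minus kidney was 7.50 ± 0.19 on the log2 scale (adjusted p = 7.3e-09). The model overlaps another on the opposite strand. The libraries were strand-specific, but use of strand in the quantification is not given in the sources used here.

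GOAT_ENSBTAP00000014529 carries the signature of HSPB7, the cardiovascular small heat shock protein, and occupies scaffold 895 from 472418 to 472579 on the plus strand. It stood at 14981, 11958 and 18972 FPKM in heart. All liver libraries and 2 kidney libraries were listed at 0, and kidney replicate 2 was at 13.8 FPKM. Heart was called higher than liver and kidney (adjusted p = 1.2e-06 and 2.7e-06).

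Among the roles formed by signature, the respiratory chain and ATP synthase had the most detected members, 14 against 13 for signalling. The signatures were written after values had been seen, so role counts here and below are descriptions and no test. Of 14 members with such a signature, all 14 passed the level and 13 were higher in heart than in both other tissues, where 14.5% of all tested models were. The median log2 difference of the 14 was 2.61 for heart minus liver, 2.86 for heart minus kidney and 0.04 for liver minus kidney. Together with 5 members of mitochondrial import and membrane organisation they held 8.16 to 11.6% of summed FPKM in heart, 1.30 to 1.98% in liver and 1.23 to 1.72% in kidney. The model of ATPase inhibitory factor 1 alone held 4.64 to 6.35% in heart.

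Within ATP synthase, the epsilon subunit signature was found in GOAT_ENSBTAP00000051455, part of the rotating central stalk. Its heart values were 9213, 8807 and 5659.7 FPKM, against 653 to 1134 FPKM in liver and 919 to 1582 FPKM in kidney. The DAPIT signature of GOAT_ENSBTAP00000012810, a small membrane subunit linked to dimers of the enzyme, stood at 5654, 3455 and 3057 FPKM in heart and between 408 and 997 FPKM elsewhere. GOAT_ENSBTAP00000038273, the 6.8 kDa proteolipid, was at 3387, 2322 and 2362 FPKM in heart and between 151 and 373 FPKM elsewhere. Its 96.1% identical single-block relative was above 0 in 5 libraries, and how reads were divided between the pair is not given.

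Subunits of complex I, which passes electrons from NADH to ubiquinone, were also higher in heart. The NDUFB1 signature of GOAT_ENSP00000330787 was at 3634, 2543 and 2419 FPKM in heart, with 164 to 192 FPKM in liver and 213 to 284 FPKM in kidney. Its log2 difference of 3.98 ± 0.22 for heart minus liver was the largest of the group (adjusted p = 4.6e-07). Members with the NDUFC1, NDUFC2 and NDUFB7 signatures showed differences of 2.68 ± 0.23, 2.35 ± 0.24 and 2.64 ± 0.24 for heart minus liver. The predicted model goat_GLEAN_10005558, with an iron-sulfur ferredoxin signature that 7 longer goat proteins share, was 2.45 ± 0.23 higher. That signature alone does not place the model in complex I or the respiratory chain, although it is counted among the 14.

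Cytochrome c oxidase, the terminal complex, gave the exception. Its 6C signature in GOAT_ENSBTAP00000018778 stood at 3259, 2861 and 2556 FPKM in heart and between 197 and 457 FPKM in the other tissues. The 7C and 6B signatures were 2.39 ± 0.25 and 2.28 ± 0.23 higher in heart than in liver on the log2 scale, and that of the assembly factor COX14 was 1.11 ± 0.29 higher. The COX14 difference was not called on median ratio scaling (0.90, adjusted p = 0.065). GOAT_ENSP00000359098, with a 7A signature, showed no tissue difference that was called. It stood at 226, 247 and 239 FPKM in heart, 235, 225 and 233 FPKM in liver, and 206, 351 and 236 FPKM in kidney. Its difference was 0.04 ± 0.22 for heart minus liver and -0.12 ± 0.22 for heart minus kidney. On median ratio scaling heart minus kidney was 0.56 and was called (adjusted p = 0.043), as was liver minus kidney at 0.74 (adjusted p = 0.015).

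Members of mitochondrial import and membrane organisation were also higher in heart, with 4 of 5 higher there than in both other tissues, where 14.5% of all tested models were. These carry the signatures of MICOS10 of the cristae junction complex, TOMM7 of the outer membrane translocase, the intermembrane chaperone TIMM13, and ROMO1. The member with the MICOS10 signature, GOAT_ENSP00000394616, was at 3974, 3052 and 2865 FPKM in heart, 451 to 477 FPKM in liver and 709 to 1015 FPKM in kidney. The exception was GOAT_ENSP00000340784, with the signature of the mitochondrial pyruvate carrier. It stood at 1216, 927 and 960.3 FPKM in heart, 946, 1437 and 562 FPKM in liver, and 155, 209 and 142 FPKM in kidney. Kidney lay below both other tissues, by 2.62 ± 0.33 from heart (adjusted p = 0.00013) and 2.45 ± 0.33 from liver (adjusted p = 0.00019), and heart and liver overlapped.

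Of 8 members with a ribosomal signature, 3 were listed at 0 in all 9 libraries and 5 were abundant in every library. All 5 were higher in heart than in liver (29.6% of all tested models were), and 4 were lower in liver than in both other tissues (17.3% of all tested models were). The eL38 signature of GOAT_ENSBTAP00000040182, which has 49 residues, stood at 8463, 10459 and 10329 FPKM in heart, 3467, 3635 and 3643 FPKM in liver, and 8167, 6522 and 4954 FPKM in kidney. The eL39 signature of GOAT_ENSP00000391684 was at 7535, 8332 and 7212 FPKM in heart, 2991, 1640.0 and 1799 FPKM in liver, and 8213, 5678 and 4164 FPKM in kidney. In both, heart and liver were clearly separated, and kidney replicate 1 was the highest kidney library. Heart minus liver was 1.44 ± 0.24 for the former (adjusted p = 0.00077) and 1.89 ± 0.32 for the latter (adjusted p = 0.00083).

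Their differences between liver and kidney were less secure. Liver minus kidney was -0.84 ± 0.24 for eL38 (adjusted p = 0.011) and -0.67 ± 0.24 for the eL36 signature of GOAT_ENSBTAP00000002349 (adjusted p = 0.034). With the replicate number as a block, the adjusted p was 0.057 and 0.070. With median ratio scaling, the differences turned to 0.06 and 0.24, and those of eL39 (-0.58) and uS14 (-0.25) were no longer called, with an adjusted p of 0.28 and 0.59. All 4 calls of a level lower in liver than in both other tissues were thus lost on that scaling. The eS28 signature of GOAT_ENSBTAP00000003201 was 0.67 ± 0.25 higher in heart than in kidney (adjusted p = 0.041), with an adjusted p of 0.071 under the block.

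**Figure D3:**
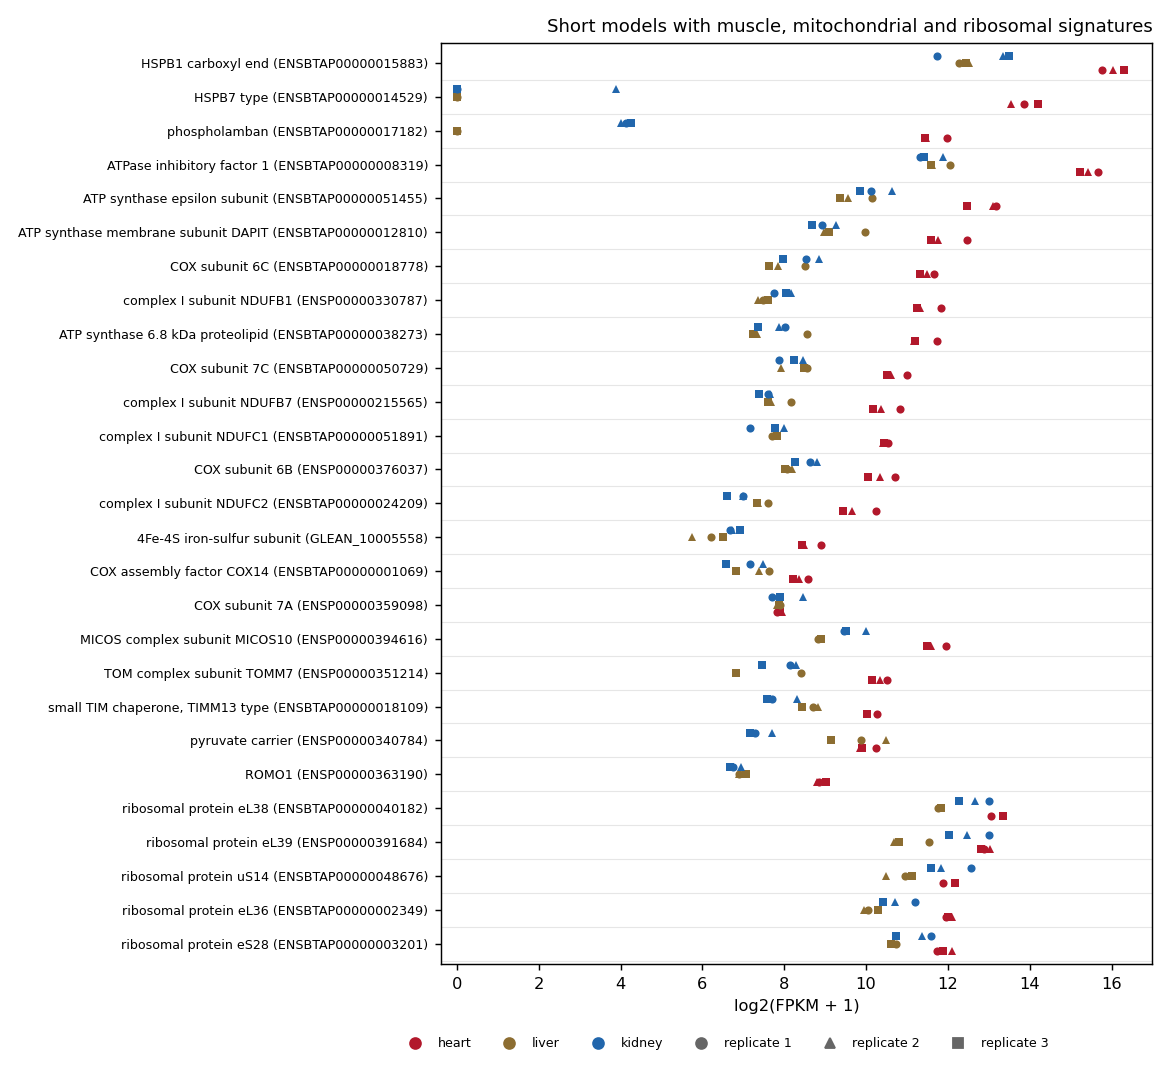
log2(FPKM + 1) in each goat library for the 27 detected members with muscle, small heat shock, mitochondrial or ribosomal signatures (colour for tissue, marker shape for replicate number). Heart libraries lie to the right of liver and kidney for 13 of 14 respiratory chain and ATP synthase members, the cytochrome c oxidase 7A row overlaps in all tissues, and the ribosomal rows have liver on the left of heart.

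Small regulators were mixed. Both members with the signature of the inhibitor of cAMP-dependent protein kinase were higher in heart than in both other tissues. GOAT_ENSBTAP00000041067 stood at 261, 245 and 288 FPKM in heart, 2.02 to 4.39 FPKM in liver and 19.9 to 29.0 FPKM in kidney. GOAT_ENSBTAP00000043833, with the signature of the adipogenesis regulatory factor, was at 499, 414 and 777 FPKM in heart, 3.14 to 6.70 FPKM in liver and 57.2 to 130.1 FPKM in kidney. The latter is known from fat tissue, and fat in the dissected samples was not measured here.

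In all, 7 members ended in the isoprenylation box of G protein gamma subunits, which anchor the beta-gamma dimer in the membrane, and they did not share a pattern. GOAT_ENSBTAP00000003959 was at 332, 304 and 240.2 FPKM in kidney and between 4.64 and 28.4 FPKM in the other tissues. GOAT_ENSBTAP00000010058 was at 117, 109 and 62.6 FPKM in heart, 62.1, 41.5 and 29.2 FPKM in kidney, and 4.45 to 4.91 FPKM in liver. The single-block model goat_GLEAN_10013359 stood at 104, 124 and 117 FPKM in liver, 50.2, 64.2 and 67.9 FPKM in heart, and 49.6, 102 and 92.7 FPKM in kidney. Heart minus liver was -0.92 ± 0.28 on the log2 scale (adjusted p = 0.021), and liver minus kidney, 0.55 ± 0.28, was not called. It was called with the replicate number as a block (adjusted p = 0.033) and on median ratio scaling (1.45, adjusted p = 0.00067). Its near-identical relative goat_GLEAN_10018219 was above 0 in 1 library.

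A pair of members listed at 0 outside heart were of proteins that most cells use. GOAT_ENSBTAP00000034543 carries the signature of the heat shock factor-binding protein and stood at 276, 300.2 and 324 FPKM in heart. The beta-thymosin signature of goat_GLEAN_10009620, an actin-binding peptide, stood at 324, 698 and 300.4 FPKM in heart. Both were listed at 0 in all 6 liver and kidney libraries. Why those libraries are listed at 0 was not tested, and 1 longer goat protein also carries the beta-thymosin signature.

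Secreted liver peptides were the clearest liver members. GOAT_ENSBTAP00000022658 carries the signature of hepcidin, the peptide hormone that limits iron export, and spans scaffold 389 from 2114827 to 2116064 on the minus strand. It was listed at 0 in every heart library, and stood at 2116, 8321 and 8627 FPKM in liver and at 4.64, 2.08 and 0 FPKM in kidney. The log2 difference between liver and kidney was 11.01 ± 0.67 (adjusted p = 1.2e-06). GOAT_ENSBTAP00000025186, with the signature of the liver-expressed antimicrobial peptide 2, was at 3918, 3038 and 3124 FPKM in liver, at most 6.12 FPKM in kidney, and listed at 0 in heart. Liver replicate 1 was the lowest liver library for hepcidin and the highest for the latter peptide.

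Of the 13 members elevated in liver, the others with a signature included the following. GOAT_ENSBTAP00000018362 carries the signature of OHCU decarboxylase, an enzyme of urate breakdown, and stood at 423, 405 and 563 FPKM in liver and at 0 in the 6 other libraries. goat_GLEAN_10003189, with a glycine N-acyltransferase signature, was at 701, 232 and 213 FPKM in liver and at 0 in the 6 other libraries. A longer model of 218 residues begins 24 bases beyond it on the same strand and had the same order in liver, 262, 99.5 and 97.3 FPKM. GOAT_ENSBTAP00000020912, with the signature of amnionless, the membrane partner of cubilin, was at 625, 505 and 123 FPKM in liver and at 0 elsewhere. Cubilin was on the planned list of kidney epithelium markers, and amnionless was not. No cubilin value was examined here, and the name of this member rests on the signature alone.

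goat_GLEAN_10008356 carries the amino-end signature of selenoprotein P, the selenium carrier of plasma. Its values were 7921, 2403 and 2693 FPKM in liver, 717, 1016 and 689.9 FPKM in heart, and 1818, 2539 and 2246 FPKM in kidney. Heart minus liver was -2.22 ± 0.43 on the log2 scale (adjusted p = 0.0019). Liver and kidney overlapped, and their difference of 0.77 ± 0.43 was not called. On median ratio scaling it was called, at 1.67 with an adjusted p of 0.021.

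The metallothionein members are small proteins that bind zinc and copper. GOAT_ENSBTAP00000034269 stood at 46.0, 2398 and 855 FPKM in liver, 14.1, 137 and 288 FPKM in kidney, and 19.8, 103 and 64.2 FPKM in heart. Replicate 1 was the lowest library in each tissue. No tissue difference was called, and the smallest adjusted p was 0.11, for heart against liver. With the replicate number as a block, liver was called higher than heart (heart minus liver -3.14, adjusted p = 0.0041) and than kidney (liver minus kidney 2.44, adjusted p = 0.010). GOAT_ENSBTAP00000022460 was called higher in kidney, at 16.7, 7.61 and 3.00 FPKM, where heart held 1 value above 0, at 3.80 FPKM, and liver none.

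Kidney members included chemokine signatures. The CC chemokine signature of GOAT_ENSBTAP00000013399 stood at 1505, 1128 and 1854 FPKM in kidney, 142, 37.0 and 107 FPKM in liver, and 16.4, 27.0 and 26.1 FPKM in heart. Heart minus kidney was -5.96 ± 0.46 (adjusted p = 5.2e-06) and liver minus kidney -4.13 ± 0.46 (adjusted p = 5.7e-05) on the log2 scale. GOAT_ENSP00000293280, another CC chemokine signature on the same scaffold, was at 67.9, 124 and 179 FPKM in kidney and between 7.95 and 25.4 FPKM elsewhere. A CXC chemokine, GOAT_ENSBTAP00000012939, reached 12.6, 18.4 and 60.7 FPKM in kidney and was above 0 in 1 of the 6 other libraries.

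CD52, a surface glycoprotein of lymphocytes, matched the signature of GOAT_ENSBTAP00000007399, which stood at 272, 148 and 124 FPKM in kidney, 3.62 to 16.1 FPKM in liver, and 13.1, 0 and 0 FPKM in heart. Its heart minus liver difference of -2.03 ± 0.95 was not called, but was called with the replicate number as a block (adjusted p = 0.020). GOAT_ENSBTAP00000044460, with the carboxyl-end signature of the surface protein CD24, was at 159, 66.9 and 135 FPKM in kidney. GOAT_ENSP00000224167, with the signature of lipocalin-type prostaglandin D synthase, was at 341, 551 and 314 FPKM in kidney, 17.6 to 39.4 FPKM in heart and at most 9.04 FPKM in liver. GOAT_ENSP00000364976, a cyclin-dependent kinase subunit, was at 49.3, 73.3 and 28.4 FPKM in kidney and at most 4.32 FPKM elsewhere. The other member of that family, GOAT_ENSP00000311083, was not highest in kidney, with 52.5, 34.3 and 41.4 FPKM in heart, 90.7, 80.1 and 104 FPKM in liver, and 59.4, 94.9 and 49.1 FPKM in kidney. The part of immune cells in these kidney values was not tested.

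**Figure D4:**
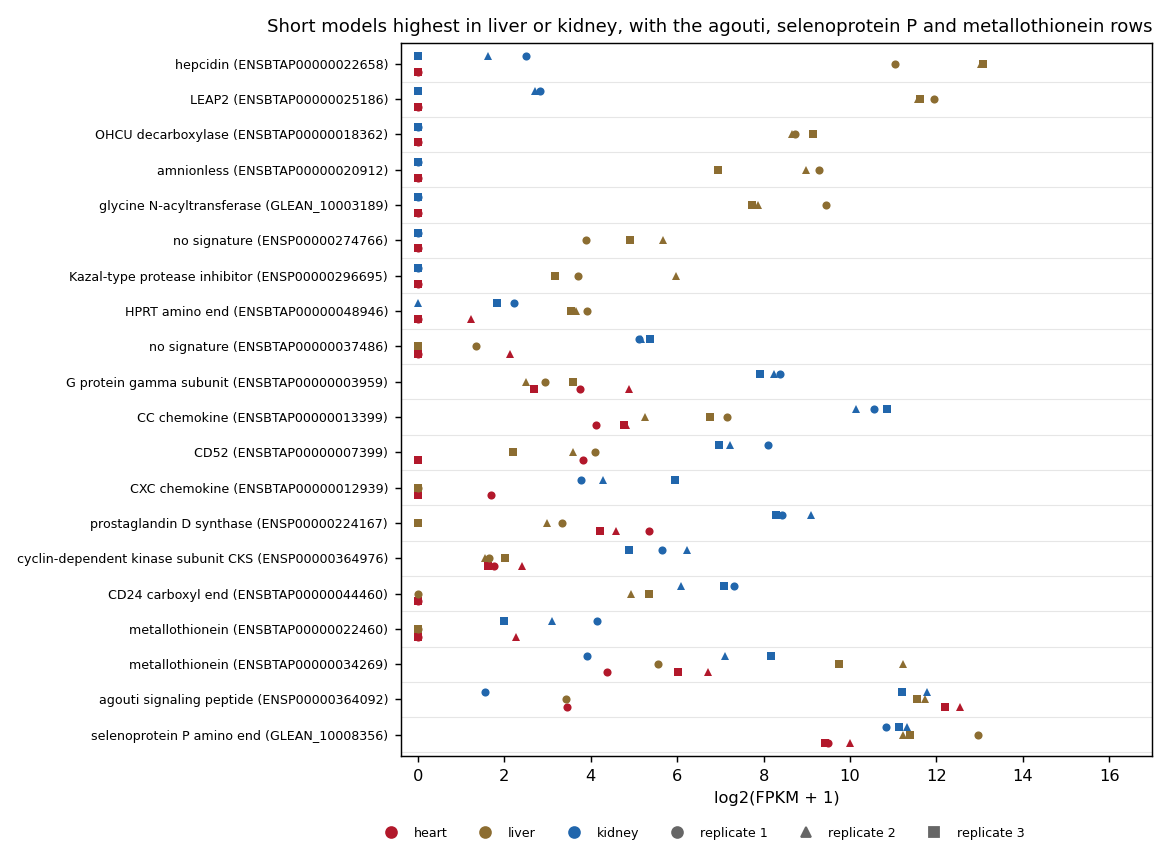
log2(FPKM + 1) in each goat library for members highest in liver or kidney and for the agouti, selenoprotein P and metallothionein signatures (colour, tissue; marker shape, replicate number). The hepcidin row reaches 8627 FPKM in liver with every heart library at 0, and the agouti row has the 3 circles of replicate 1 under 10 FPKM and the other 6 libraries at 2353 FPKM or more.

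A member with the signature of the agouti signaling peptide differed far more by replicate number than by tissue. Agouti antagonises the melanocortin receptor of pigment cells. GOAT_ENSP00000364092 has 75 residues and lies on scaffold 849 at 254157 to 255697, minus strand. It stood at 9.92, 5983 and 4723 FPKM in heart, 9.74, 3392 and 2979 FPKM in liver, and 1.92, 3515 and 2353 FPKM in kidney. Replicate 1 was the low library in every tissue and the other 6 libraries were all high. Tissue differences had an SE of 3.45 on the log2 scale and none was called. With the replicate number as a block, heart minus kidney was 1.23 and was called (adjusted p = 0.014). Of the 201 members tested it was the only one in which a replicate number stood apart by 2 log2 units or more on the same side in all tissues, as did 43 of all 13634 tested models (0.315%). In 36 of those 43, replicate 1 was the low one.

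The nearest model on the scaffold shared the direction. GOAT_ENSBTAP00000024092, of 423 residues on the opposite strand from 225569 to 235105, stood at 12.5, 60.4 and 54.0 FPKM in heart, 114, 356 and 436 FPKM in liver, and 90.8, 254 and 206 FPKM in kidney. The next model, GOAT_ENSP00000262650, had no such difference, with 10.5, 11.9 and 11.1 FPKM in heart and 24.0 to 26.0 FPKM in kidney. The cause of the replicate difference was not tested.

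Low members spread more between replicates than longer models of the same level. Where both libraries were above 0, the robust SD of the log2 difference between replicates was 0.802 for members with a mean log2(FPKM + 1) of 1 to 3, against 0.462 for longer models. It was 0.890 against 0.421 between 3 and 5, and 0.627 against 0.425 between 5 and 8. At 8 or more, members had 0.454 and longer models 0.536. In the lowest band the value rose to 2.91 when libraries listed at 0 were kept, and stayed at 0.464 for longer models.

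**Figure D5:**
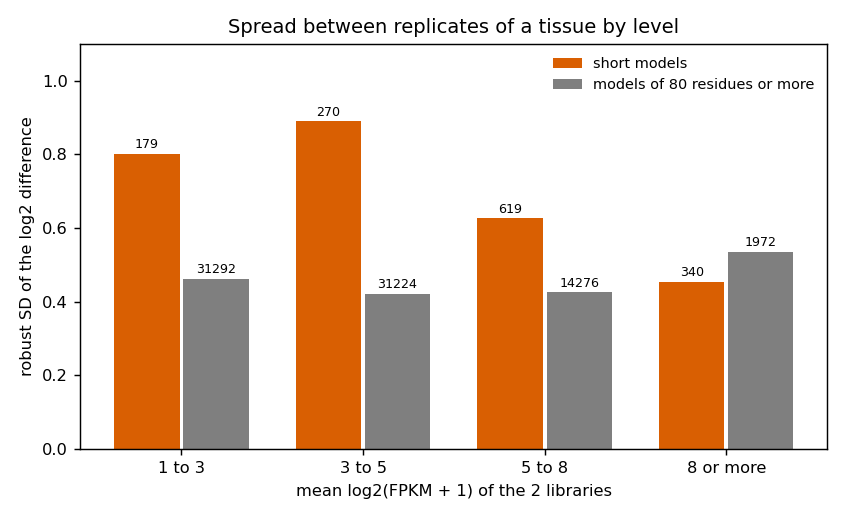
Robust SD of the log2 difference between 2 replicates of a tissue, by their mean log2(FPKM + 1), for members and for models of 80 residues or more, with the number of differences above each bar and libraries at 0 left out. Members exceed longer models in the 3 lower bands and not in the highest, where the values are 0.454 and 0.536.

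The shortest detected members were eL38 and GOAT_ENSP00000397881, of 49 residues, followed by several of 50 that include GOAT_ENSBTAP00000045946. GOAT_ENSP00000397881 stood at 726, 417 and 382 FPKM in heart, 173, 248 and 161 FPKM in liver, and 167, 128 and 232 FPKM in kidney. GOAT_ENSBTAP00000045946 was at 84.8, 79.1 and 24.4 FPKM in heart and listed at 0 in all 6 other libraries. No signature was assigned to either of these, and GOAT_ENSP00000397881 lies 290 bases from a longer model on the same strand whose values ran from 3.72 to 8.96 FPKM.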

How the data were processed

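Messenger RNA libraries of goat heart, liver and kidney were grouped by sample title, 3 per tissue. The paper states that the 3 goat heart samples duplicate samples under other records. Heart columns carry the English tissue name, and liver and kidney columns the pinyin one. Whether heart was prepared or processed apart from the other tissues is not given in the sources used here. Such a separate handling could not be told apart from a tissue difference. According to the study's methods, reads were mapped with TopHat to CHIR_1.0 and quantified with Cufflinks. Version 2.2.1 of Cufflinks is named in the submitters' processing notes. The authors deposited log2(FPKM + 1) per gene model, and FPKM was recovered from it. No counts were given, so the depth of each library is unknown, and no counting interval could be had. FPKM of very short models depends strongly on the effective length that the quantification assumes, which the deposited log2 values do not show. Protein length, scaffold and strand were read from the deposited goat protein file, whose last entry was cut off. The 3916 models without a protein there could not be placed by length. Columns of cattle and sheep were not used here.

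limma 3.58.1 (lmFit, then eBayes with trend) in R 4.3.3 was fitted to all 9 libraries with a mean per tissue, on models above 0.5 FPKM in at least 3 libraries, with Benjamini-Hochberg adjustment within each contrast. The fit was tested on simulated data. Adjusted p-values in the report are from this fit unless an exact permutation test is named. Near-identical proteins were found with blastp of BLAST+ 2.17.0. Named members are, per tissue, the 8 with the highest mean FPKM and the 8 elevated members with the largest smaller difference, the 3 shortest tested, and members with a residue signature. Members and lists were chosen with earlier results of these data known, and the signatures after the values were seen. A planned match to named proteins and the marker check could not be run, since no table of named proteins matched.

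Same-numbered libraries deviated together from their tissue means over the tested models (correlations of 0.146 to 0.472, each above 0.1). Libraries of different number gave -0.417 to 0.134, so a level of 0.1 does not separate the 2 kinds, though every same-number value was higher. The numbers were used as a block in an alternative fit, and the labels do not state that they mark animals. Blocked values were computed for members with a signature and those named by the rule above, and are printed where a call changes. P-values measure the spread between these libraries only.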

Additional observations from a re-analysis of the deposited data

How the results depend on the processing

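Under a pseudocount of 0.1, no filter, a stricter filter, 3 scalings, no variance trend, a replicate block and without each library, a larger share of members than of all tested models was called higher in heart than in liver, higher in heart than in kidney, and elevated in heart. Requiring 0.5 FPKM in over 80% of the libraries tested fewer models. It left 4 members elevated in liver (6.15% of all tested models) and 17 in kidney (34.4%). Median ratio scaling left 16 elevated in kidney, where 16.6% of all tested models were, against 34.2% in the main fit. With the replicate number as a block, 136, 118 and 94 members were called for heart against liver, heart against kidney and liver against kidney. Of these, 103, 75 and 26 were higher in the first tissue (32.7, 19.4 and 14.7% of all tested models). The other 33, 43 and 68 were higher in the second (23.9, 49.9 and 56.2%). Elevated in heart, liver and kidney were 69, 16 and 29 members (15.8, 10.6 and 38.5% of all tested models). Among members with a signature or named, the block lost 4 calls and gained 7, of which heart minus kidney of BRK1 (lost, adjusted p = 0.050), liver minus kidney of NDUFC2 (gained, 0.028) and heart minus liver of GOAT_ENSP00000293280 (gained, 0.036) are not given above. Median ratio scaling lost 15 of their calls and gained 21. The filter of 3 libraries was applied again after each library was left out. Members above the level in 1 tissue only then failed it when that tissue lost a library. Leaving out a library gave 100 to 123, 99 to 114 and 65 to 86 calls in those contrasts, and 56 to 68, 7 to 14 and 22 to 29 elevated members. The share of summed FPKM moved to 27.0 to 27.4% in heart, 8.85 to 9.20% in liver and 9.18 to 9.99% in kidney. The share of members above 0.5 FPKM moved to 29.6 to 30.5%, 28.4 to 28.6% and 30.5 to 31.6%. With copy-suffix models included, short models held 28.6, 9.65 and 10.4% of summed FPKM in heart, liver and kidney, and 28.1% of them exceeded 0.5 FPKM in liver. Without the most abundant member the shares of summed FPKM were 20.6, 8.17 and 8.29%, and without the 2 highest in heart, chosen after seeing the data, 15.6, 7.62 and 7.84%. The robust SD in the lowest band was 0.802 with zeros left out. Named members gave a value in a setting only where they passed its filter. Under the stricter filter 44 values kept direction and call and 1 gained it, compared with 104 and 1 without a variance trend. Members detected in 1 tissue only are thus left out of part of the next counts. For 35 named members, 1577 of 1644 values kept direction and call, 46 lost the call, 19 gained it and 2 turned round. The latter were liver minus kidney of eL36 (0.24) and eL38 (0.062) under median ratio scaling. The cause of these changes was not tested. Depth is unknown, and for models this short a value just above 0 already exceeds 0.5 FPKM, so low expression of an undetected member cannot be told from none.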
